A study of Homo sapiens with 12 samples.

Results

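The matrix metalloproteases (MMP), the ADAMTS proteases and the tissue inhibitors of metalloproteases (TIMP) were followed in 3 human hepatocellular carcinoma cell lines by RNA sequencing. Members were all genes whose symbol is MMP or ADAMTS with a number, or TIMP1 to TIMP4, and the rule found 47 of 62710 genes: 24 MMP, 19 ADAMTS and 4 TIMP genes. The tested groups were PLC/PRF/5, HLF and SNU475 cells given lactate at 20 mM, added as the acid, over 24 h, and the controls were cells of the same lines labelled control, with 2 libraries in each of the 6 groups. All groups were established lines grown in culture with no transgene or deletion in the labels, and each line stands for 1 tumour. Nothing in the labels says that libraries of a group are independent cultures, so each p-value reflects library-to-library spread alone, some of which may be technical. The study addressed how lactate acts on liver cancer cells, so each line was compared with its own control, and the untreated lines were compared with each other.

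MMPs are zinc-dependent endopeptidases that cut collagens, laminins and other matrix proteins; most are secreted as inactive precursors, while the membrane-type members are anchored at the cell surface. ADAMTS proteases are secreted relatives with thrombospondin repeats that cut proteoglycans, trim procollagens or act on other matrix proteins. TIMPs bind the catalytic zinc of these enzymes and block it, and in liver disease both sides are best known from stellate cells, macrophages and invading tumour cells.

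The stretch around the catalytic zinc shows what the members share and is printed for the genes on which the results turn. It is the coding sequence of the 3 histidines that hold the zinc, with those histidine codons in capitals, taken from the GENCODE 29 transcripts (GRCh38), 5′ to 3′ on the coding strand.
MMP14: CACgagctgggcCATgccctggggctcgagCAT
MMP15: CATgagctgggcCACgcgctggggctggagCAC
MMP1: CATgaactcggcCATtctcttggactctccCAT
MMP3: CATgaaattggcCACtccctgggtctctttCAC
MMP12: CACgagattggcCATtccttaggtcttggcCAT
MMP2: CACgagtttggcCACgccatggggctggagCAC
ADAMTS9: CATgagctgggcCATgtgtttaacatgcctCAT
ADAMTS15: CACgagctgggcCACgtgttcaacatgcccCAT
ADAMTS7: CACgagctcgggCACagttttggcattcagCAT
ADAMTS12: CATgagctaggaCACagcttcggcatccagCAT
Across these 33 bases MMP14 and MMP15 shared 28, ADAMTS9 and ADAMTS15 shared 29, ADAMTS7 and ADAMTS12 shared 27, MMP1 and MMP3 shared 24, and MMP3 and MMP12 shared 23. The search asked for these histidines and also for a glutamate and a glycine or asparagine at set places between them. This pattern was found in 23 of 23 MMPs with a coding sequence and in 18 of 19 ADAMTS genes. ADAMTS8 did not match it, and whether ADAMTS8 keeps the 3 histidines was not tested. For the TIMPs, the start of the mature inhibitor, whose first cysteine reaches into the active site, is shown with its cysteine codons in capitals.
TIMP1: TGCaccTGTgtcccaccccaccca
TIMP2: TGCagcTGCtccccggtgcacccg
TIMP3: TGCacaTGCtcgcccagccacccc
TIMP4: TGCagcTGCgccccggcgcaccct
TIMP2 and TIMP4 shared 21 of these 24 bases, against 15 for TIMP1 with TIMP2 and 15 for TIMP1 with TIMP3.

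The libraries held 16533437 to 22187849 expected counts. PLC/PRF/5 cells carried the liver markers: untreated, all 12 hepatocyte genes tested were higher than in each of the other lines, against 12.5% of all genes. The 12 markers summed to 4713 and 7396 TPM (a transcript level corrected for gene length and library size) in PLC/PRF/5 lactate libraries. They summed to 3327 and 5281 TPM in PLC/PRF/5 control libraries, against 5.6 to 17.9 TPM in HLF and SNU475. ALB, APOA1, APOB and TTR reached at most 0.45 TPM in any HLF or SNU475 library. The 8 fibroblast and stellate cell markers summed to 949 to 1828 TPM in SNU475, 27.5 to 63.6 TPM in HLF and 3.0 to 8.5 TPM in PLC/PRF/5. Of 7 macrophage and leukocyte markers, PTPRC, CD163, CSF1R, TYROBP and AIF1 stayed at or below 0.86 TPM, and CD68, which many cells express, made up most of the summed level. CD14 had 29.5 and 5.9 TPM in SNU475 lactate and 28.95 and 4.44 TPM in SNU475 control libraries, and at most 1.37 TPM in the other lines; its part in the SNU475 results was not tested. The SNU475 libraries numbered 2 stood apart from those numbered 1 in both conditions, with 13.88% of counts from mitochondrial genes (lactate) and 15.05% (control) against 8.5% (lactate) and 8.0% (control) in the libraries numbered 1. MMP7, MMP24, TIMP4 and ADAMTS9 were over 2-fold higher in CPM (counts relative to the scaled library size) in the libraries numbered 1 in both conditions (3.24% of the 14172 genes averaging 1 CPM or more) and MMP3, MMP9, MMP12 and TIMP3 in those numbered 2 (2.01%).

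The lines shared part of these genes: of the 38 that passed the filter on low counts, 11 had at least 10 counts in 2 or more libraries in each of the 3 lines, 17 did so in 2 lines, 9 in 1 line and 1 in none. Those 38 were 18 MMP, 16 ADAMTS and 4 TIMP genes. Of all 47 members, 23 reached a mean of 5 TPM in some group, and 17 stayed below 1 TPM in all groups. MMP8, MMP20, MMP21, MMP23A, MMP26, MMP27, ADAMTS8, ADAMTS17 and ADAMTS19 did not pass. MMP26, MMP27 and ADAMTS19 had no counts in any library. In untreated cells, 5 members reached 5 TPM in PLC/PRF/5, 12 in HLF and 18 in SNU475. In bulk RNA, fewer cells expressing a gene and less RNA of it per cell cannot be told apart.

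**Figure D1:**
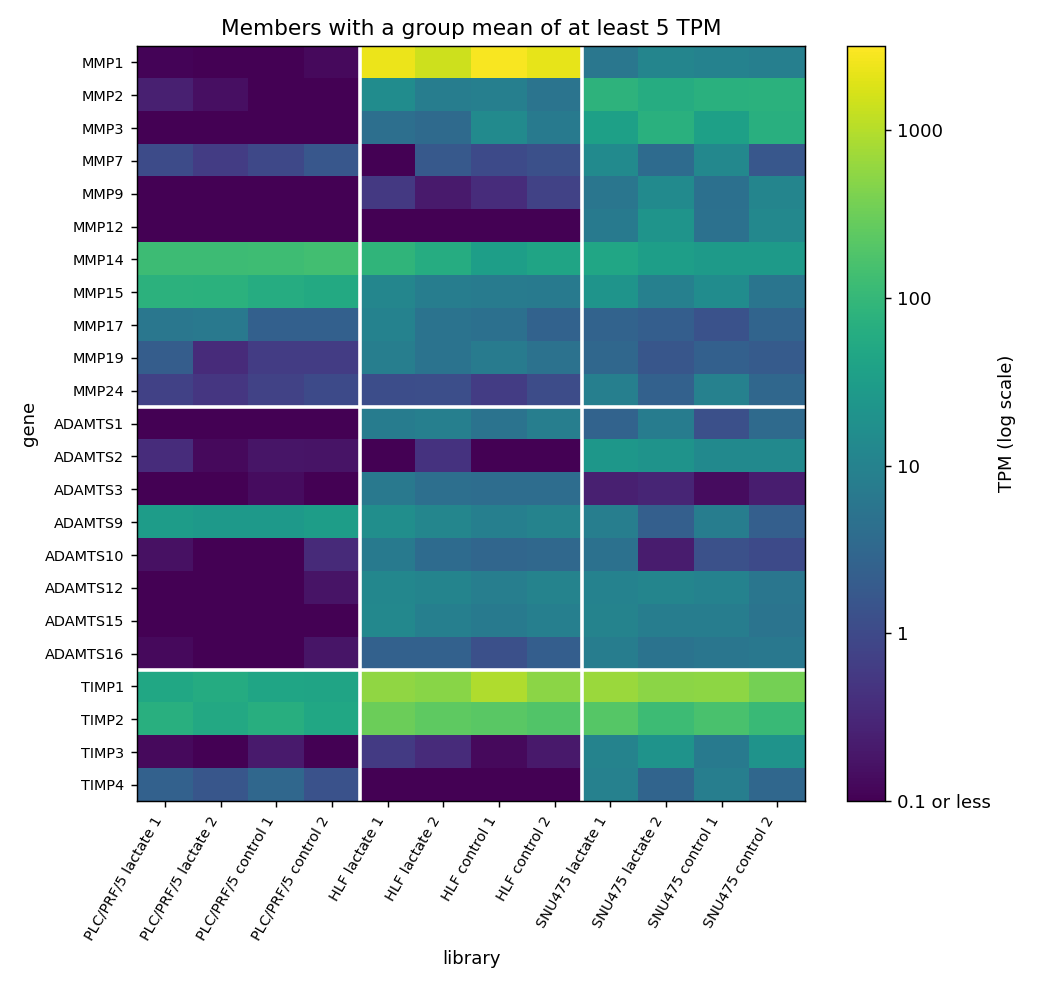
Heat map of TPM (log scale, 0.1 or less in the darkest colour) for the 23 members with a group mean of at least 5 TPM, with 12 libraries in columns by line and treatment. MMP1 is bright in HLF, MMP14, MMP15 and ADAMTS9 are highest in PLC/PRF/5, and MMP2, MMP3, MMP9, MMP12, TIMP3 and ADAMTS2 are highest in SNU475.

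MMP1, MMP2, MMP3, MMP9, MMP12 and MMP13, all secreted, were low or listed at 0 in PLC/PRF/5. MMP1, the interstitial collagenase, had 2295 and 1436 TPM in HLF lactate libraries, against 2899 and 2137 TPM in HLF control libraries. In SNU475 it had 6.03 and 11.3 TPM with lactate against 9.78 and 8.92 TPM in control, and in PLC/PRF/5 0.11 and 0.06 TPM with lactate against 0 and 0.13 TPM in control. The MMP1 transcript alone was 93.9% and 93.3% of all MMP TPM in HLF lactate libraries and 97.2% and 96.3% in HLF control libraries.

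MMP3 (stromelysin) had 36.1 and 72.0 TPM in SNU475 lactate libraries and 36.6 and 67.8 TPM in SNU475 control libraries. HLF held 4.45 and 3.56 TPM of MMP3 with lactate against 14.4 and 7.07 TPM in control, and all 4 PLC/PRF/5 libraries were listed at 0. MMP12, the macrophage elastase, was near 0 outside SNU475, where it had 7.26 and 20.9 TPM with lactate and 4.71 and 12.8 TPM in control. Within SNU475, MMP3, MMP9, MMP12 and TIMP3 were over 2-fold higher on the CPM scale in the libraries numbered 2 in both conditions, so the libraries differed more by number than by treatment for these genes.

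MMP2, the gelatinase that MMP14 activates at the cell surface, had 82.2 and 62.1 TPM in SNU475 lactate libraries, against 72.2 and 73.95 TPM in SNU475 control libraries. In HLF the MMP2 level was 15.5 and 7.93 TPM with lactate and 8.6 and 5.43 TPM in control, while PLC/PRF/5 had 0.25 and 0.15 TPM with lactate and 0 in both controls. MMP9, the other gelatinase, had 5.83 and 14.35 TPM in SNU475 lactate and 4.52 and 11.35 TPM in SNU475 control libraries, and no more than 0.77 TPM in any HLF or PLC/PRF/5 library. Every SNU475 library was thus above every library of the other lines for MMP2, MMP3, MMP9 and MMP12. MMP7 (matrilysin) had 14.35 and 3.78 TPM in SNU475 lactate and 12.8 and 1.69 TPM in SNU475 control libraries, with 0.07 to 1.81 TPM in the other lines, and was over 2-fold higher in the SNU475 libraries numbered 1. MMP13, the third collagenase, was seen mainly in SNU475, at 0.69 and 1.03 TPM with lactate and 0.78 and 1.16 TPM in control.

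Several of these genes lie side by side on the minus strand of chromosome 11 (GENCODE 29, GRCh38). MMP1 spans chr11:102789920-102798160, MMP3 chr11:102835801-102843803, MMP12 chr11:102862736-102875034 and MMP13 chr11:102942995-102955734. Neighbours were expressed in different lines: MMP1 was highest in HLF, while MMP3 and MMP12, the next genes, were highest in SNU475. MMP27 had no counts and MMP8 at most 0.09 TPM in any library. The pseudogene WTAPP1, which overlaps MMP1, MMP3 and MMP10 on the other strand, had at most 1.27 TPM.

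**Figure D2:**
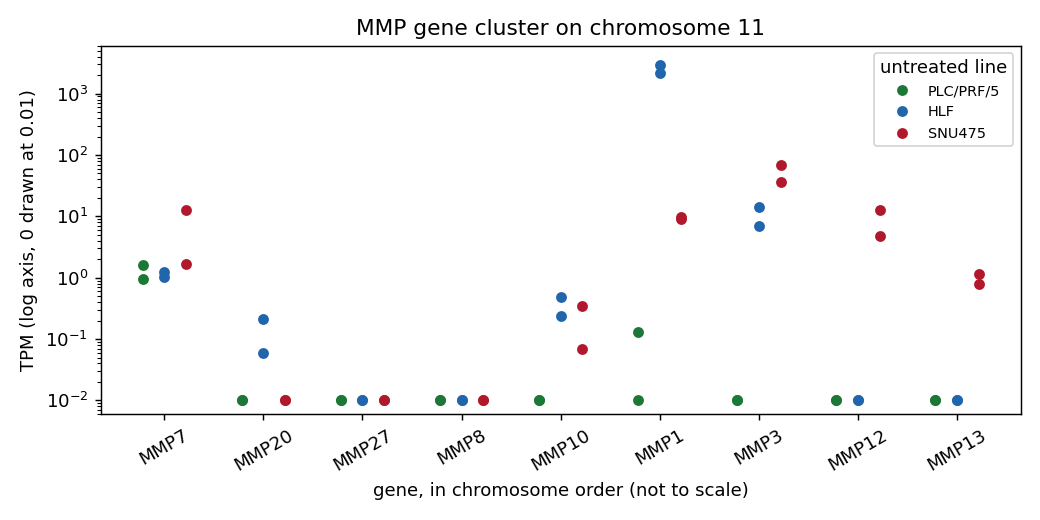
TPM (log axis, 0 drawn at 0.01) of the MMP genes of the chromosome 11 cluster in untreated libraries, with genes in chromosome order and 1 point per library. MMP1 is highest in HLF (2899 and 2137 TPM), while the adjacent MMP3 and MMP12 are highest in SNU475.

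The membrane-type MMPs made up most of the MMP RNA of PLC/PRF/5. MMP14 (MT1-MMP), which activates proMMP2 and cuts fibrillar collagen, had 119.8 and 122 TPM in PLC/PRF/5 lactate libraries, against 126 and 138 TPM in PLC/PRF/5 control libraries. In HLF it had 89.2 and 61.4 TPM with lactate against 33.5 and 42.2 TPM in control, and in SNU475 45.95 and 33.1 TPM against 28.9 and 27.8 TPM. MMP15 (MT2-MMP) had 77.1 and 75.4 TPM in PLC/PRF/5 lactate libraries and 61.9 and 54.2 TPM in PLC/PRF/5 control libraries, and at most 21.3 TPM elsewhere. Together MMP14 and MMP15 were 90.9% of MMP TPM in both PLC/PRF/5 lactate libraries and 94.8% and 93.9% in the controls. Furin, the convertase that removes the propeptide of membrane-type MMPs, was also highest in PLC/PRF/5, at 176 and 189 TPM with lactate and 213 and 230.3 TPM in control, against 40.6 to 70.4 TPM in the other lines.

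Other anchored members had lower levels. MMP17 (MT4-MMP) had 6.19 and 6.6 TPM in PLC/PRF/5 lactate and 2.42 and 2.38 TPM in PLC/PRF/5 control libraries, 9.82 and 5.08 TPM against 4.61 and 2.63 TPM in HLF, and 2.72 and 2.19 TPM against 1.36 and 2.78 TPM in SNU475. MMP24 (MT5-MMP) was highest in SNU475, with 8.82 and 2.54 TPM with lactate and 9.33 and 3.19 TPM in control, and at most 1.22 TPM in the other lines. It overlaps MMP24OS on the other strand, which had 32.2 to 168 TPM and was likewise higher in the SNU475 libraries numbered 1. MMP16 (MT3-MMP) had 4.98 and 3.92 TPM in HLF lactate and 3.05 and 6.9 TPM in HLF control libraries, 1.03 and 0.92 TPM against 0.94 and 1.57 TPM in PLC/PRF/5, and 0.06 and 0.1 TPM against 0 and 0 in SNU475. MMP25 (MT6-MMP) was low, with 0.52 and 0.79 TPM against 0.21 and 0.09 TPM in PLC/PRF/5, 0 and 0 against 0.02 and 0.3 TPM in HLF, and 0.26 and 0.07 TPM against 0.6 and 0.07 TPM in SNU475.

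MMP19, a secreted MMP of broad specificity, had 8.3 and 5.15 TPM in HLF lactate and 7.35 and 4.97 TPM in HLF control libraries. It had 2.15 and 0.36 TPM against 0.62 and 0.62 TPM in PLC/PRF/5 and 3.19 and 1.57 TPM against 2.37 and 1.95 TPM in SNU475. MMP28 (epilysin) was listed at 0 in all 4 HLF libraries, with 1.58 and 2.59 TPM (lactate) against 1.61 and 2.77 TPM (control) in PLC/PRF/5 and 1.82 and 1.74 TPM against 1.25 and 0.37 TPM in SNU475. It overlaps TAF15 on the other strand, which had 43.6 to 137 TPM in all libraries and whose part in the MMP28 values was not tested.

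Among the ADAMTS genes, ADAMTS9 dominated PLC/PRF/5 and several others were shared by HLF and SNU475. ADAMTS9, which cuts versican and aggrecan, had 31.05 and 26.6 TPM in PLC/PRF/5 lactate libraries, against 26.1 and 31.5 TPM in PLC/PRF/5 control libraries. It had 16.7 and 11.7 TPM against 8.69 and 10.4 TPM in HLF, and 8.42 and 2.34 TPM against 7.94 and 2.33 TPM in SNU475, where the libraries numbered 1 were the higher. ADAMTS9 was 87.9% and 87.8% of all ADAMTS TPM in PLC/PRF/5 lactate libraries and 94.0% and 92.8% in the controls. Its substrate versican (VCAN) was also abundant in PLC/PRF/5, at 118.9 and 115 TPM with lactate and 114 and 124 TPM in control, against at most 3.07 TPM in the other lines. Aggrecan (ACAN) was not, with at most 0.01 TPM in PLC/PRF/5 and at most 0.91 TPM in SNU475.

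ADAMTS12, a relative of ADAMTS7 that cuts cartilage oligomeric matrix protein, had 12.2 and 10.9 TPM in HLF lactate and 8.53 and 10.4 TPM in HLF control libraries. The SNU475 level of ADAMTS12 was 9.86 and 11.4 TPM with lactate against 9.8 and 5.86 TPM in control, while PLC/PRF/5 had 0 and 0.01 TPM against 0.01 and 0.17 TPM. ADAMTS15, a proteoglycan-cutting member, had 12.55 and 8.79 TPM against 7.19 and 8.84 TPM in HLF, 10.4 and 8.08 TPM against 8.14 and 5.49 TPM in SNU475, and at most 0.1 TPM in PLC/PRF/5. HLF and SNU475 thus shared both genes and PLC/PRF/5 libraries lay below all of theirs. ADAMTS1, another proteoglycan-cutting member, had 7.64 and 8.76 TPM against 5.16 and 8.52 TPM in HLF, 2.75 and 7.7 TPM against 1.27 and 3.61 TPM in SNU475, and at most 0.05 TPM in PLC/PRF/5.

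The procollagen N-proteinases divided HLF from SNU475. ADAMTS2 had 24.3 and 20.75 TPM in SNU475 lactate and 13.85 and 13.9 TPM in SNU475 control libraries, at most 0.45 TPM in HLF and at most 0.37 TPM in PLC/PRF/5. ADAMTS3 had 6.68 and 4.4 TPM in HLF lactate and 4.08 and 4.01 TPM in HLF control libraries, and at most 0.29 TPM in SNU475 and 0.14 TPM in PLC/PRF/5. ADAMTS14, the remaining member with this activity, was seen in SNU475 at 0.6 and 0.69 TPM with lactate and 0.61 and 0.49 TPM in control. Type I and III collagen RNA was likewise highest in SNU475: COL1A1 had 312 and 318 TPM with lactate and 205 and 295 TPM in control, against at most 27.8 TPM in the other lines.

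ADAMTS16 had 8.17 and 5.13 TPM in SNU475 lactate and 5.81 and 6.35 TPM in SNU475 control libraries, 2.54 and 2.47 TPM against 1.23 and 2.21 TPM in HLF, and at most 0.18 TPM in PLC/PRF/5. ADAMTS10, known for a role in fibrillin microfibrils, had 7.2 and 3.77 TPM against 3.09 and 3.34 TPM in HLF, 4.8 and 0.22 TPM against 1.32 and 1.02 TPM in SNU475, and at most 0.35 TPM in PLC/PRF/5. The 2 SNU475 lactate libraries lay on either side of the control libraries for ADAMTS10.

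TIMP1 and TIMP2 were the most abundant of the 4 TIMPs in all lines, and both were lowest in PLC/PRF/5. TIMP1 had 48.1 and 57.8 TPM in PLC/PRF/5 lactate and 43.5 and 42.5 TPM in PLC/PRF/5 control libraries. In HLF it had 562 and 495 TPM against 904 and 527 TPM, and in SNU475 656 and 523 TPM against 534 and 363 TPM. TIMP2, which also carries proMMP2 to MMP14, had 69.25 and 52.7 TPM against 65.8 and 47.3 TPM in PLC/PRF/5, 314 and 239.7 TPM against 227 and 191 TPM in HLF, and 206 and 124 TPM against 159.6 and 112 TPM in SNU475. No PLC/PRF/5 library reached the lowest HLF or SNU475 library for either gene.

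TIMP3, the matrix-bound inhibitor that also blocks ADAMTS enzymes, had 10.5 and 20.6 TPM in SNU475 lactate and 7.17 and 20.75 TPM in SNU475 control libraries, and at most 0.58 TPM in HLF and 0.21 TPM in PLC/PRF/5. TIMP4 had 9.43 and 2.84 TPM against 8.53 and 3.22 TPM in SNU475, 2.52 and 1.62 TPM against 3.14 and 1.35 TPM in PLC/PRF/5, and at most 0.08 TPM in HLF. TIMP4 was over 2-fold higher in the SNU475 libraries numbered 1, the reverse of TIMP3. The ratio of summed TIMP to summed MMP TPM was 0.554 and 0.517 in PLC/PRF/5 lactate against 0.567 and 0.446 in PLC/PRF/5 control, 0.358 and 0.478 against 0.38 and 0.324 in HLF, and 3.58 and 2.78 against 3.44 and 2.24 in SNU475. SNU475 was the only line with more TIMP than MMP transcripts, a ratio of RNA levels that says nothing of protein or activity.

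The lines differed at most of the members. Untreated PLC/PRF/5 against untreated HLF gave 25 of 38 members past an adjusted p of 0.05, 7 higher and 18 lower in PLC/PRF/5, where 43.0% of all genes tested passed, 21.7% higher and 21.3% lower (edgeR's quasi-likelihood test, Benjamini-Hochberg adjustment over 18355 genes). Against untreated SNU475, 29 of 38 passed in PLC/PRF/5, 5 higher and 24 lower, against 48.7% of all genes (22.4% higher and 26.3% lower). Untreated HLF against untreated SNU475 gave 17 of 38, 3 higher and 14 lower in HLF, against 39.0% of all genes (17.2% higher and 21.9% lower). PLC/PRF/5 was lower than both other lines at 15 of 38 members, against 12.6% of all genes, and higher than both at 3 (MMP14, MMP15 and ADAMTS9), against 12.5% of all genes. In all, 33 of 38 members passed in at least 1 comparison, against 67.8% of all genes, and 5 in none. The filter on low counts keeps genes detected in 1 line alone, as 9 of the 38 members were, or in 2 lines, as 17 were. For these, a difference from a line without them is partly set by the filter, which was the same for all genes. Among them are MMP1, MMP2, MMP3, ADAMTS1 and ADAMTS12, each at 3 counts or fewer over the PLC/PRF/5 controls. These 3 comparisons share control libraries, so their calls are not independent.

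The median log2 fold change over the 38 members was -0.85 for PLC/PRF/5 against HLF, -4.24 for PLC/PRF/5 against SNU475 and -0.47 for HLF against SNU475, beside 0, -0.03 and 0 over all genes tested. With members at 0 counts in a group set at the bound that 3 counts give, and those at 3 counts or fewer in both groups left out, the medians were -1.83, -2.61 and -0.46.

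Between untreated PLC/PRF/5 and HLF, several genes were nearly silent in PLC/PRF/5. MMP1 had 3 counts in the PLC/PRF/5 control libraries and 147215 in the HLF control libraries, a ratio of 47500 after scaling (HLF over PLC/PRF/5, 95% counting interval 16200 to 230000, edgeR adjusted p 1.49e-07). MMP2 was at least 255-fold lower and MMP3 at least 191-fold lower in PLC/PRF/5, taking 3 counts over the group as the limit for a group at 0 (edgeR adjusted p 4.84e-06 and 0.000204). The HLF over PLC/PRF/5 ratio was 781 for ADAMTS3 (140 to 30900), 600.0 for ADAMTS12 (166 to 4960) and 285 for ADAMTS1 (97.1 to 1380), and, named after its values were seen, 178 for ADAMTS10 (31.6 to 7070). ADAMTS15 was lower in PLC/PRF/5 by a log2 fold change of -7.30 ± 0.32 (SE, edgeR adjusted p 4.2e-08). MMP28 was at least 18.9-fold higher in PLC/PRF/5 (edgeR adjusted p 0.00093). The counting intervals cover counting error only. In the limits, here and below, the group at 0 is set at 3 counts and the other group is taken as counted, without its counting error.

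Against untreated SNU475, MMP2 was at least 2690-fold, MMP3 at least 1060-fold, MMP12 at least 180.0-fold and MMP13 at least 29.1-fold lower in PLC/PRF/5. The SNU475 over PLC/PRF/5 ratio was 523 for ADAMTS12 (145 to 4330), 324 for MMP9 (89.3 to 2680) and 200 for MMP1 (68.1 to 973), and, named after their values were seen, 122 for ADAMTS1 (41.3 to 593) and 88.2 for ADAMTS10 (15.4 to 3530). MMP16 went the other way, at least 68.8-fold higher in PLC/PRF/5 (edgeR adjusted p 1.12e-05), since SNU475 controls had no counts of it. MMP2, MMP3, MMP12, MMP13, ADAMTS12, MMP9 and MMP1 had edgeR adjusted p-values of 1.4e-07 (ADAMTS12) to 0.00363 (MMP13).

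Between untreated HLF and SNU475, MMP16 was at least 387-fold higher in HLF (edgeR adjusted p 2.02e-06). MMP1 was higher in HLF by a log2 fold change of 7.88 ± 0.56 (SE, edgeR adjusted p 1.73e-06). Lower in HLF were MMP12 (at least 186-fold), ADAMTS7 (at least 113-fold), MMP13 (at least 30-fold) and MMP28 (at least 11.5-fold), all at 0 counts in the HLF controls. ADAMTS2 had 1 count in HLF and 1228 in SNU475 controls, a SNU475 over HLF ratio of 1370 (245 to 54000), and the ratio of TIMP4, named after its values were seen, was 102 (27.9 to 851). TIMP3 was lower in HLF by a log2 fold change of -6.74 ± 0.77 (SE, edgeR adjusted p 4.91e-05).

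Tests for the abundant genes in which PLC/PRF/5 stood apart are added here, named after their values were seen. MMP14 was higher in PLC/PRF/5 by 1.43 ± 0.21 on the log2 scale against HLF and 1.46 ± 0.21 against SNU475 (edgeR adjusted p 0.000251 and 0.000209). MMP15 was higher by 2.72 ± 0.38 and 2.02 ± 0.37 (edgeR adjusted p 0.000149 and 0.000916), and ADAMTS9 by 1.84 ± 0.49 and 2.55 ± 0.51 (edgeR adjusted p 0.0104 and 0.00167). TIMP1 gave log2 fold changes of -4.46 ± 0.35 and -3.91 ± 0.34 in PLC/PRF/5 (edgeR adjusted p 1.82e-06 and 4.44e-06), and TIMP2 gave -2.12 ± 0.27 and -1.68 ± 0.27 (edgeR adjusted p 8.45e-05 and 0.000389).

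**Figure D3:**
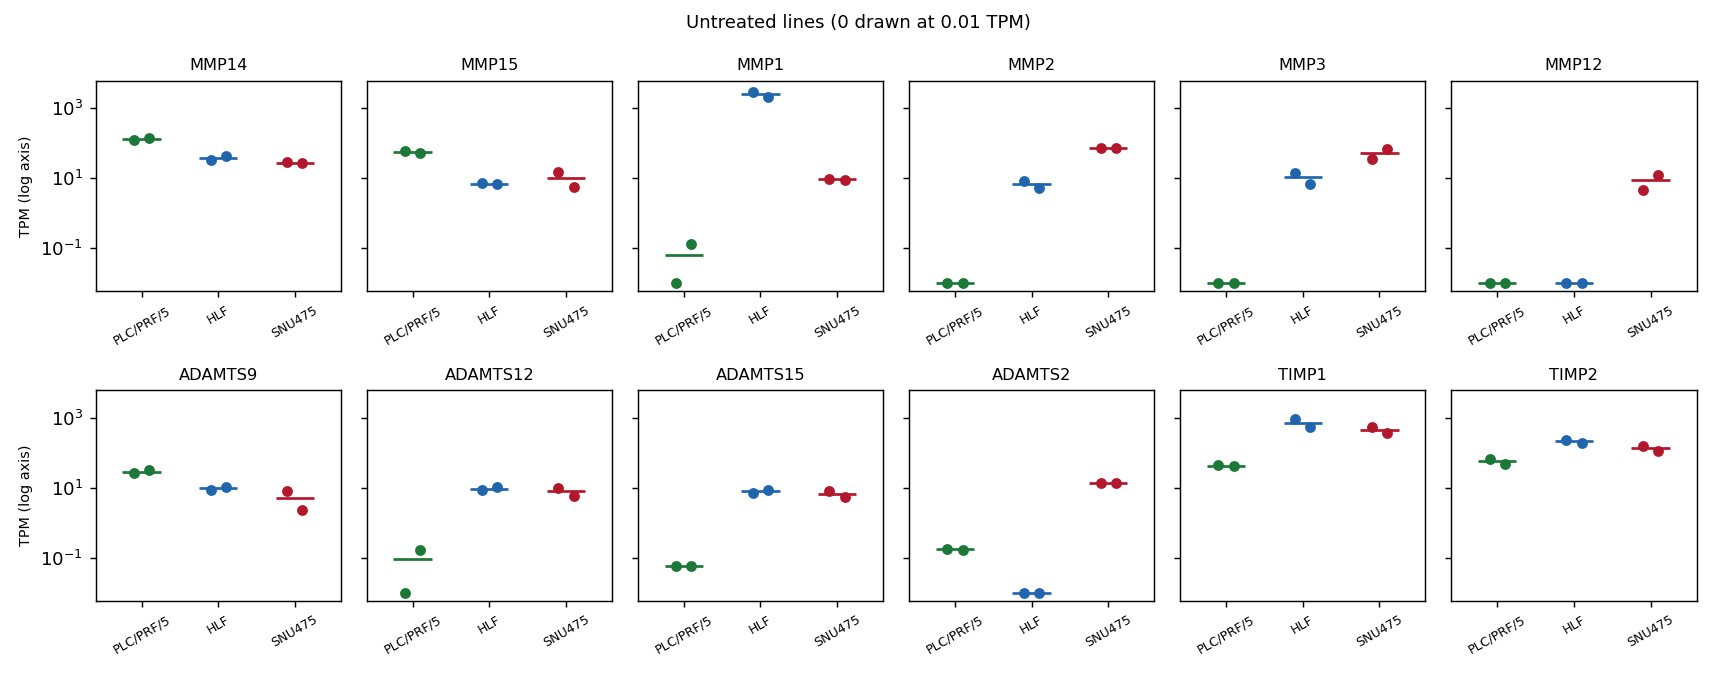
TPM (log axis, 0 drawn at 0.01) of 12 members in the untreated libraries of each line, with 1 point per library and a bar at the mean. MMP14, MMP15 and ADAMTS9 are highest in PLC/PRF/5, whereas TIMP1, TIMP2, ADAMTS12 and ADAMTS15 are lowest there.

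With lactate and libraries unpaired, none of the 38 members passed an adjusted p of 0.05 in any line, and neither did any of the 18355 genes (0.0% in each line, edgeR's quasi-likelihood test). With libraries of a line paired by number, that test called 121 genes in PLC/PRF/5, 1 of them a member. It then called 3 genes in HLF and 46 in SNU475, with 0 members in either. At an unadjusted p under 0.05 there were 4 members in PLC/PRF/5, 4 higher and 0 lower with lactate, against 5.92% of all genes (4.51% higher and 1.42% lower). HLF had 7, 4 higher and 3 lower, against 6.28% of all genes (3.27% higher and 3.0% lower), and SNU475 had 1, which was higher, against 11.6% of all genes (6.4% higher and 5.19% lower). DESeq2 called 1 member in PLC/PRF/5 and none in HLF or SNU475, and limma-voom and limma on log2(TPM + 0.1) called none. The CPM of the groups did not overlap, with lactate higher, for 13 members in PLC/PRF/5 (28.5% of all genes), 9 in HLF (19.6%) and 11 in SNU475 (16.2%). With lactate lower they were 3 in PLC/PRF/5 (21.8%), 3 in HLF (19.9%) and 0 in SNU475 (15.4%).

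Averaged over the 3 lines with equal weight and without pairing, 1 of 38 members passed, ADAMTS7, which was higher with lactate. Of all genes, 0.42% passed (0.305% higher and 0.114% lower). At an unadjusted p under 0.05 there were 7 members, all higher with lactate in the mean, where 15.8% of all genes reached that level (9.02% higher and 6.8% lower): ADAMTS7, MMP11, MMP16, ADAMTS2, MMP23B, ADAMTS13 and MMP14. MMP16 had 1 and 7 counts in SNU475 lactate against 0 in both controls, so its fitted mean depends on how 0 is treated. In HLF its group mean was lower with lactate, at 29.4 against 33.1 CPM. ADAMTS2 had 15 counts in 1 HLF lactate library, and MMP14 was lower with lactate in PLC/PRF/5. The median log2 fold change of the mean effect was 0.38 over the members, with 27 of 38 positive, and 0.03 over all genes, with 54.2% positive. By line the median was 0.27 in PLC/PRF/5, 0.23 in HLF and 0.38 in SNU475, beside 0.03, 0 and 0.01 over all genes. Members at 3 counts or fewer in both groups were then left out, and those at 0 in a group were set at their bound. The medians were then 0.33 over 25 members in PLC/PRF/5, 0.26 over 35 in HLF and 0.38 over 38 in SNU475. No member passed the test of a different lactate effect between lines (0.0% of all genes); 5 members had an unadjusted p under 0.05 there, against 3.51% of all genes.

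ADAMTS7, a protease of vascular and joint matrix that cuts cartilage oligomeric matrix protein, was higher in every lactate library than in the controls of its line. It had 1.18 and 0.92 TPM in PLC/PRF/5 lactate libraries, against 0.1 and 0.18 TPM in PLC/PRF/5 control libraries. In HLF it had 0.1 and 0.13 TPM with lactate and 0 in both controls, and in SNU475 4.23 and 2.29 TPM against 2.35 and 1.86 TPM. On the TPM scale the SNU475 groups overlapped, while on CPM, which takes no account of gene length, they did not, at 14.5 and 13.8 CPM against 8.55 and 8.80 CPM.

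The ADAMTS7 counts were 86 and 51 in PLC/PRF/5 lactate against 5 and 12 in control, 8 and 4 in HLF lactate against 0 and 0, and 233 and 203 in SNU475 lactate against 152 and 153. The log2 fold change was 2.72 ± 0.48 in PLC/PRF/5 (SE, edgeR adjusted p 0.191) and 0.70 ± 0.39 in SNU475 (SE, edgeR adjusted p 0.522). In HLF, with the controls at 0 set at 3 counts, ADAMTS7 was 3.59-fold higher with lactate (edgeR adjusted p 0.516). That value makes no allowance for counting error in the few lactate counts. The mean effect had an edgeR adjusted p of 0.0269, and its fitted size depends on how the HLF controls at 0 are treated, so none is given. Over 21 alternative settings that adjusted p ran between 2.98e-06 and 0.152 and passed in 12. It did not pass without either HLF control library, HLF lactate library 1, any PLC/PRF/5 library, SNU475 control library 2, or on log2(TPM + 0.1). With libraries of the same number in a line paired, ADAMTS7 passed for the mean effect (edgeR adjusted p 0.00774) and in PLC/PRF/5 (edgeR adjusted p 0.0318).

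ADAMTS7 lies on the minus strand of chromosome 15 (chr15:78759203-78811431, GRCh38) and overlaps MORF4L1 on the plus strand. MORF4L1 had 819 and 657 TPM in PLC/PRF/5 lactate against 738 and 695 TPM in control, 472 and 494 TPM against 348 and 430.3 TPM in HLF, and 672 and 636 TPM against 636 and 471 TPM in SNU475. The kit marks strand, but the strand setting of the counting is not given in the sources used here, so reads of overlapping genes may not be fully separated, and the part of MORF4L1 in the result was not tested. The pseudogene copies ADAMTS7P1, ADAMTS7P3 and ADAMTS7P4 had at most 0.26 TPM in any library.

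MMP11 (stromelysin-3), which is known from tumour stroma, came next in the mean effect. It had 4.16 and 4.38 TPM in PLC/PRF/5 lactate libraries, against 1.91 and 1.73 TPM in PLC/PRF/5 control libraries. On the TPM scale the HLF groups overlapped at 0.52 and 1.11 TPM against 0.21 and 1.31 TPM, and so did the SNU475 groups at 3.63 and 1.45 TPM against 3.23 and 1.24 TPM. In counts, HLF had 8 and 20 with lactate against 4 and 4 in control, which did not overlap. Its log2 fold change was 1.60 ± 0.54 in PLC/PRF/5, 1.62 ± 0.70 in HLF and 0.16 ± 0.52 in SNU475 (edgeR adjusted p 0.653, 0.787 and 0.96), and the mean effect was 1.13 ± 0.34 (edgeR adjusted p 0.142). With the libraries of a line paired by number, the mean effect of MMP11 passed (edgeR adjusted p 0.0289), as did that of MMP15 (0.39 on the log2 scale, edgeR adjusted p 0.0369).

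MMP11 overlaps CHCHD10 on the other strand, which was also higher in the lactate libraries. CHCHD10 had 333 and 442 TPM in PLC/PRF/5 lactate against 189 and 279.7 TPM in control, 97.9 and 116 TPM against 55.4 and 86.1 TPM in HLF, and 173 and 166 TPM against 100 and 141 TPM in SNU475. Its part in the MMP11 values was not tested.

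MMP23B, a membrane-bound MMP without the usual cysteine switch, and ADAMTS7 were the 2 of 38 members whose lactate libraries all lay above the controls in CPM in all 3 lines, where 2.72% of all genes did so. No member was lower in all 3 (3.37% of all genes). MMP23B had 1.58 and 2.01 TPM against 0.89 and 0.41 TPM in PLC/PRF/5, 2.46 and 2.34 TPM against 0.9 and 0.78 TPM in HLF, and 5.98 and 2.93 TPM against 1.84 and 1.7 TPM in SNU475. Its counts were low, 4 to 38 per library. The log2 fold change of the mean effect was 0.97 ± 0.38 (SE, edgeR adjusted p 0.248). MMP23A, an unprocessed pseudogene and near copy, had at most 0.27 TPM, and CDK11B on the other strand had 18.95 to 46.3 TPM in all libraries.

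**Figure D4:**
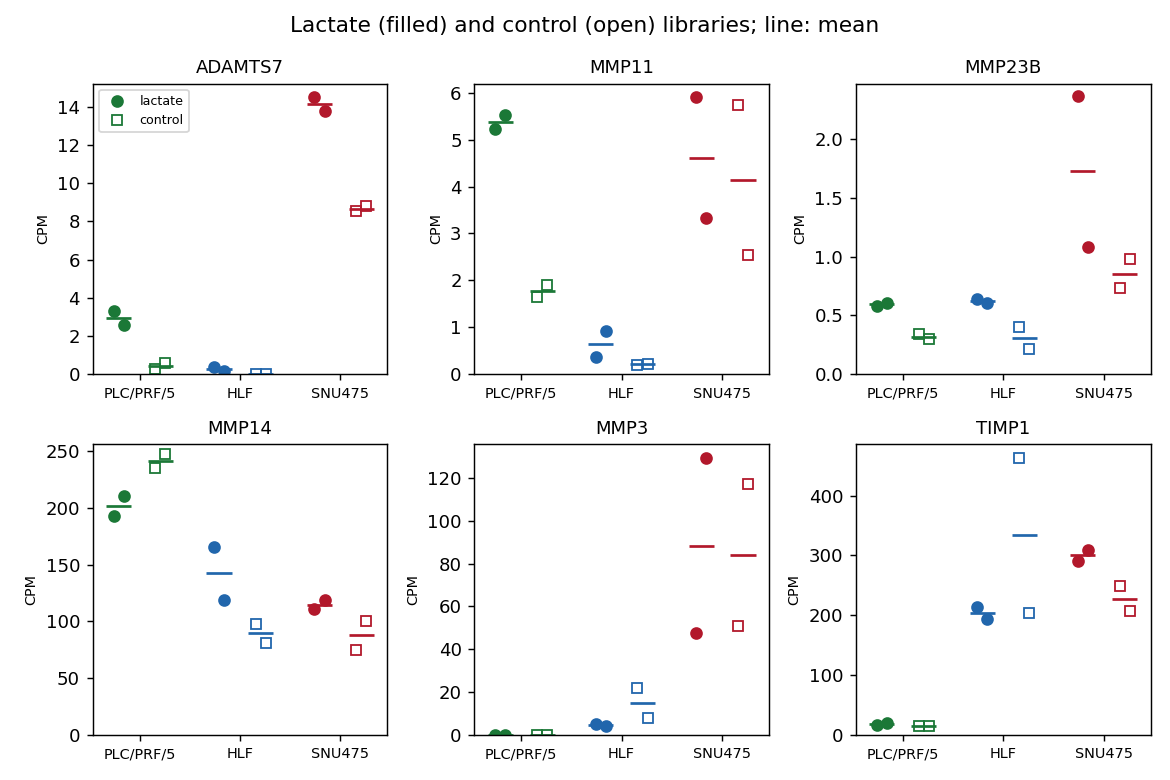
CPM of 6 members in each library, with lactate libraries filled and control libraries open, and a line at each mean. ADAMTS7 and MMP23B are higher with lactate in all 3 lines, MMP14 is higher with lactate in HLF and lower in PLC/PRF/5, and a high HLF control library sets the TIMP1 mean.

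MMP14 moved differently by line without passing a test. It had 193 and 210.7 CPM in PLC/PRF/5 lactate against 235 and 247 CPM in PLC/PRF/5 control, 166 and 119 CPM against 97.5 and 81.3 CPM in HLF, and 111 and 118 CPM against 75.0 and 101 CPM in SNU475. The groups did not overlap in any line, and the direction in PLC/PRF/5 was opposite to that in HLF and SNU475. The log2 fold change was -0.26 ± 0.21 in PLC/PRF/5, 0.67 ± 0.21 in HLF and 0.39 ± 0.21 in SNU475 (edgeR adjusted p 0.973, 0.734 and 0.507), with a mean effect of 0.27 ± 0.12 (edgeR adjusted p 0.315). The interaction had an unadjusted p of 0.0256 and an adjusted p of 1 (edgeR).

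In HLF, MMP3 was lower with lactate at 4.99 and 4.13 CPM against 21.8 and 8.06 CPM in control. Its log2 fold change was -1.71 ± 0.61 (SE, edgeR adjusted p 0.749), and it passed where no filter on low counts was used (edgeR adjusted p 5.03e-05). TIMP1 had 214 and 194 CPM in HLF lactate against 463 and 204 CPM in HLF control, a log2 fold change of -0.71 ± 0.30 (SE, edgeR adjusted p 0.787) that rested on control library 1. The log2 fold change of TIMP1 was 0.03 without that library and -1.18 without control library 2. MMP25 had no counts in HLF lactate and 9 in HLF control (edgeR adjusted p 0.74). It was 3.34-fold lower with the lactate group set at 3 counts and the 9 counts taken as they stand. ADAMTS2 had 1 and 15 counts in HLF lactate against 1 and 0 in HLF control, so 1 library held most of them, with a ratio of 14.4 (2.23 to 602) and an edgeR adjusted p of 0.756.

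In PLC/PRF/5, MMP17 had 149 and 153 counts with lactate against 52 and 57 in control, with a log2 fold change of 1.23 ± 0.51 (SE, edgeR adjusted p 0.789). ADAMTS20, a versican-cutting relative of ADAMTS9, had 16 and 17 counts against 2 and 2, with a log2 fold change of 2.73 ± 1.11 (SE, edgeR adjusted p 0.789). Both genes had groups that did not overlap in this line. ADAMTS13, which the liver makes to cut von Willebrand factor, had 1.46 and 1.68 TPM in PLC/PRF/5 lactate against 0.21 and 0.62 TPM in PLC/PRF/5 control, with overlapping groups in HLF (0.75 and 0.15 TPM against 0.15 and 0.45 TPM) and 0.43 and 0.02 TPM against 0 and 0.04 TPM in SNU475 (mean effect, edgeR adjusted p 0.279). ADAMTS13 overlaps REXO4 on the other strand. REXO4 had 19.9 and 18.7 TPM in PLC/PRF/5 lactate against 24.9 and 22.8 TPM in control, and its part in the ADAMTS13 values was not tested. MMP16, listed at 0 in both SNU475 controls, had 1 and 7 counts in SNU475 lactate (edgeR adjusted p 0.276). It was 3.04-fold higher with the controls set at 3 counts and the lactate counts taken as they stand.

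**Figure D5:**
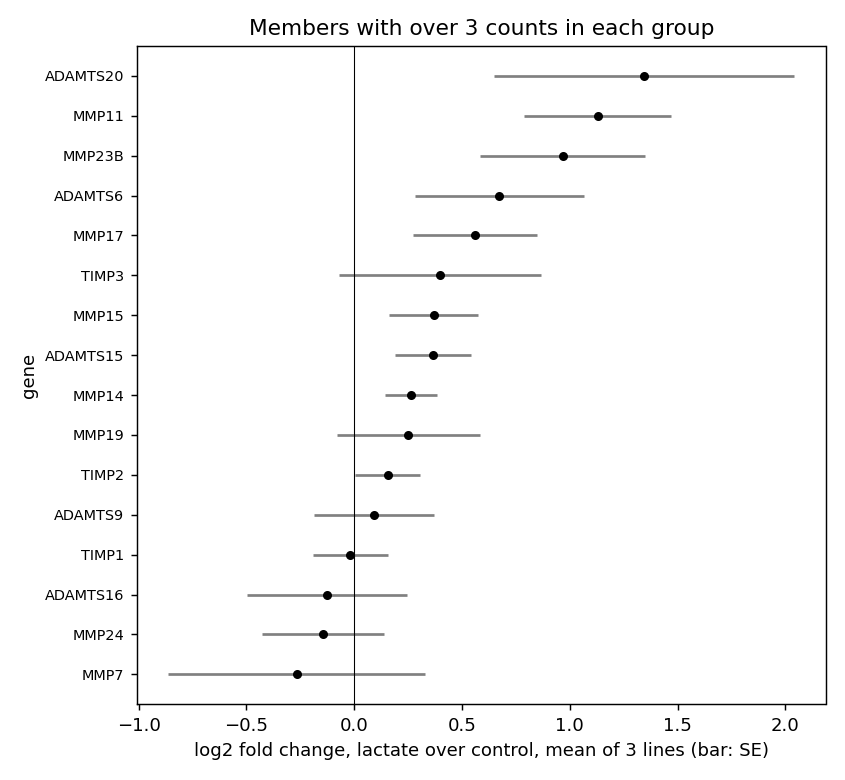
Log2 fold change of lactate over control averaged over the 3 lines, with its standard error, for the 16 members with over 3 counts in each of the 6 groups. Values run between -0.27 for MMP7 and 1.35 for ADAMTS20, and none of these 16 passed an adjusted p of 0.05 with libraries unpaired.

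Genes that work with these proteases were taken as lists, chosen with earlier results known. For the mean lactate effect, where 0.42% of all genes passed, 1 of 5 ADAMTS-like genes tested did: ADAMTSL4, a secreted ADAMTS relative without protease activity. It had 14.2 and 17.8 TPM in PLC/PRF/5 lactate against 4.13 and 5.21 TPM in control, 35.9 and 23.5 TPM against 13.9 and 12.4 TPM in HLF, and 19.0 and 6.8 TPM against 5.01 and 3.01 TPM in SNU475. No library of the lactate groups overlapped the controls of its line, and the log2 fold change was 1.45 ± 0.25 (SE, edgeR adjusted p 0.0401).

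Of 27 matrix substrates, 1 passed for the mean effect, COL6A2, a chain of type VI collagen, against 0.42% of all genes. The median log2 fold change of the list was 0 in PLC/PRF/5, where TNC, ELN and DCN were listed at 0 in every library, 0.55 in HLF and 0.36 in SNU475, beside 0.03, 0 and 0.01 over all genes. It was positive for 12 of 27 genes in PLC/PRF/5, 24 in HLF and 25 in SNU475, beside 52.8%, 48.0% and 51.0% of all genes. COL6A2 had 5.52 and 4.97 TPM in PLC/PRF/5 lactate against 1.31 and 1.4 TPM in control, 363 and 301 TPM against 232 and 264 TPM in HLF, and 237 and 180.5 TPM against 131 and 145 TPM in SNU475 (log2 fold change 0.88 ± 0.12 SE, edgeR adjusted p 0.0269). COL6A1 missed the threshold (0.66 ± 0.15 SE, edgeR adjusted p 0.0774). None passed among 11 ADAM genes, 12 genes of the plasminogen system and proprotein convertases, 9 other inhibitors and regulators and 20 transcription factors known to act on MMP genes. At the share of 0.42% over all genes, lists this short can hold none. ADAM19 lay just outside (0.70 ± 0.14 SE, edgeR adjusted p 0.0505).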

How the data were processed

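RNA of 12 libraries was sequenced from a directional kit, per the labels' protocols. The authors deposited RSEM expected counts, TPM and FPKM per gene, per the file headers; FPKM was not used, and TPM depends on each library's effective gene lengths. FastQC, STAR, RSEM, DESeq2 and the mouse builds GRCm38 and mm10 are listed in the submitters' processing notes, although all 62710 gene identifiers are human; the human build is not given in the sources used here. Both members and lists were chosen with earlier results of these data known. Rows for the Y copies of 47 pseudoautosomal genes were summed with the X rows. Expected counts were rounded and filtered with filterByExpr (18355 genes left), scaled by TMM (0.794 to 1.17), and fitted with edgeR 4.0.16 (R 4.3.3, robust quasi-likelihood) to all 12 libraries as 6 groups, with 6 residual degrees of freedom and a biological coefficient of variation of 0.26. Calls used a Benjamini-Hochberg adjusted p of 0.05. Standard errors of edgeR fold changes were derived, as the absolute log2 fold change over the square root of the test's F statistic. Depth was 16533437 to 22187849 expected counts per library, which sets the counting error. Coordinates and coding sequences come from GENCODE 29 (GRCh38), matched by gene identifier without its version. Named members were those with a group mean of at least 5 TPM, an unadjusted p under 0.05 in a lactate contrast, or among the 8 called members with the largest fitted fold between untreated lines, a ranking that depends on the fit where a group has 0 counts; up to 4 genes with the smallest p stand for each list, and other list genes were chosen after their values were seen. Libraries of the same number in a line deviated together (correlation 0.132 in PLC/PRF/5, 0.101 in HLF, 0.446 in SNU475), so numbers were taken to pair lactate with control there. The labels do not state pairing, so it rests on these same data, with weak correlations in PLC/PRF/5 and HLF. Across lines, correlations lay between -0.06 and 0.032, and numbers were not taken to pair libraries. Alternatives were DESeq2 1.42.0, limma 3.58.1 (voom, and log2(TPM + 0.1)), upper-quartile scaling, other filters, effective-length offsets, fits to the compared libraries alone, pairing, and leaving out libraries.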

Additional observations from a re-analysis of the deposited data

How the results depend on the processing

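Counts of called members between untreated lines stayed within 1.5 times of those given, under all alternatives run. For lactate, calls moved. Without a filter on low counts, edgeR called 1 member in PLC/PRF/5, 3 in HLF (ADAMTS7 and ADAMTS2 higher, MMP3 lower), 1 in SNU475 (MMP16), 4 for the mean effect and 1 for the interaction (MMP3, adjusted p 0.0364), and 922 genes for the mean effect against 77 with the filter. With the replicate block within line, 1 member was called in PLC/PRF/5 among 121 genes, and 3 for the mean effect among 1268 genes. That setting called 3 genes in HLF and 46 in SNU475, with 0 members in either. DESeq2 called 977 genes for the mean effect, 91 in PLC/PRF/5, 41 in HLF and 274 in SNU475, with 1 member in PLC/PRF/5 (adjusted p 0.000461), as did the fit without both SNU475 libraries numbered 2, and the fit to PLC/PRF/5 alone called 3 (ADAMTS7, MMP11 and MMP17). limma on log2(TPM + 0.1) called 0 for the mean effect, where ADAMTS7 had an adjusted p of 0.116. Leaving out 1 library at a time gave 0 to 2 members for the mean effect and 0 to 2 in SNU475, where 2 (ADAMTS1 and MMP16) were called without SNU475 lactate library 1. In HLF, TIMP1 changed sign without control library 1 (log2 fold change 0.03, and -1.18 without control library 2). The cause was not tested. For named members, 1007 of the recomputed values kept direction and side of the threshold, 17 gained a call, 9 lost it and 1 reversed. The replicate block over lines changed the counts of untreated calls little (25, 27 and 18). Members under about 10 counts per library are limited by depth.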

Other observations

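Genes of the marker and partner lists were compared between the untreated lines as well. Of all genes tested, 21.7% passed as higher and 21.3% as lower in PLC/PRF/5 against HLF. Against SNU475 these shares were 22.4% higher and 26.3% lower. The list of the plasminogen system and proprotein convertases, which activate MMP precursors, had 5 genes higher and 6 lower of 12 tested in PLC/PRF/5 against HLF, and the same numbers against SNU475. Against HLF the 5 higher genes were the convertases FURIN, PCSK5 and PCSK6, the plasmin inhibitor gene SERPINF2 and the membrane protease gene HPN. PLAU (urokinase) had 2.79 and 1.55 TPM in PLC/PRF/5 lactate against 3.51 and 1.18 TPM in control, 283 and 242 TPM against 362 and 319.9 TPM in HLF, and 32.7 and 38.3 TPM against 16.6 and 36.8 TPM in SNU475. PCSK6, a convertase like furin, was nearly confined to PLC/PRF/5 among these libraries, at 25.9 and 33.2 TPM with lactate and 19.95 and 25.35 TPM in control, against at most 0.4 TPM elsewhere. A2M, the plasma protease trap made by liver, had 566 and 1035 TPM against 349.7 and 666 TPM in PLC/PRF/5, and at most 5.42 TPM elsewhere. RECK, a membrane-anchored MMP inhibitor, was at most 0.41 TPM in SNU475, with 7.69 and 8.53 TPM against 5.0 and 4.25 TPM in PLC/PRF/5 and 15.0 and 11.5 TPM against 6.77 and 8.61 TPM in HLF.

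Matrix substrates were lower in PLC/PRF/5 than in HLF at 12 of 27 genes and higher at 3, beside 21.3% and 21.7% of all genes. They were lower than in SNU475 at 20 and higher at 2, beside 26.3% and 22.4% of all genes. The same shares of all genes apply to the lists that follow. The ADAM genes gave 1 higher and 4 lower of 11 in PLC/PRF/5 against HLF and 3 higher and 6 lower against SNU475, the ADAMTS-like genes 1 higher and 3 lower of 5 in both, the other inhibitors and regulators 3 higher and 2 lower of 9 and 3 higher and 4 lower, and the transcription factors 4 higher and 9 lower of 20 and 4 higher and 10 lower. FOSL1, an AP-1 factor named here after its values were seen, had 8.93 and 7.29 TPM against 19.2 and 11.1 TPM in PLC/PRF/5, 153 and 211 TPM against 169 and 279 TPM in HLF, and 66.6 and 154 TPM against 54.9 and 96.2 TPM in SNU475. Mesenchymal markers were lower in PLC/PRF/5 at 5 of 7 against HLF and 7 of 7 against SNU475, fibroblast markers at 7 of 8 and 8 of 8, epithelial markers gave 2 higher of 7 against HLF and 1 higher and 3 lower against SNU475, leukocyte markers 1 lower of 4 and 4 lower of 4, and endothelial markers 1 higher and 1 lower of 2 in both. No cell type marker passed for the mean lactate effect, where 0.42% of all genes did.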
